A study of Arabidopsis thaliana with 4 samples.

Results

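The 38 genes described here encode the Calvin cycle of Arabidopsis thaliana (the 4 small subunits of Rubisco, Rubisco activase, 16 other enzyme genes and the 3 CP12 regulators) and 14 enzymes and transporters of photorespiration. They were taken by locus identifier from the 34133 loci of each deposited table, and all 38 were present and tested in both tables. Transcript levels were compared between wild type of accession Col-0 and the mutant labelled AtTric1&2 dko (dko below), a double mutant of TRIC1 (AT3G49560) and TRIC2 (AT5G24650). These related proteins are known for the import of tRNA into mitochondria. Rosette leaves were collected at 4 weeks from plants moved to soil on day 5, and seedlings at 2 weeks. All 4 groups (wild-type and dko rosettes, wild-type and dko seedlings) grew at 22 °C with 16 h of light after 2 days of seed stratification at 4 °C. Each is stated to hold 3 replicates, with no word on whether these were separate plants or pools. The mutant alleles were among the details not given in the sources used here. Each table holds 1 pooled FPKM per locus and group, a level scaled to transcript length and to the size of the library, so no value has a standard deviation. Comparisons rest on the authors' Cuffdiff q-value, a p-value adjusted over all tested loci, which gives no spread for a ratio. Depth is unknown.

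Rubisco joins CO2 to ribulose-1,5-bisphosphate in the chloroplast stroma, the product is reduced to triose phosphate, and the remaining enzymes of the Calvin cycle rebuild the acceptor. When Rubisco takes oxygen instead, 2-phosphoglycolate is formed, and photorespiration recovers its carbon through the chloroplast, the peroxisome and the mitochondrion, where glycine is turned into serine and ammonia is released. In leaves both pathways run in the light, and the nuclear genes for them are known as light-responsive genes that also react to the state of the chloroplast.

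The RBCS genes include the largest fall among the 38 genes, that of RBCS2B in seedlings. They are known for light-response elements upstream of the coding region, shown here because the 4 copies differ in them. Capitals mark the I-box, GATAAG or its reverse complement CTTATC, and the G-box, CACGTG, which reads the same on both strands. From the first forward I-box to the G-box, 3 copies read 5′ to 3′, on the minus strand of TAIR10.1:
RBCS1A (chr1:25049503-25049532): GATAAGattcatggaattatcttcCACGTG
RBCS2B (chr5:15382189-15382217): GATAAGattatggagttttctgcCACGTG
RBCS3B (chr5:15378518-15378546): GATAAGataatggagttttctgcCACGTG
The stretches of RBCS2B and RBCS3B differed at 1 of 29 bases. No CACGTG was present in the 250 bases before the start of RBCS1B given in the deposited tables, where the letters of 2 I-boxes overlap. A stretch of 30 bases is also shown from the I-box closest to the gene in RBCS1A, RBCS2B and RBCS3B. In RBCS1B it begins at the outer of the 2 overlapping I-boxes, so its letters stand out of register with the others:
RBCS1A (chr1:25049450-25049479): GATAAGggtctcaacacctctccttaggcc
RBCS1B (chr5:15385296-15385325): GATAAGATAAGggtgtcaacacctttcctt
RBCS2B (chr5:15382136-15382165): GATAAGggtgtcaacacctttccttaatcc
RBCS3B (chr5:15378465-15378494): GATAAGggtgtcaacacctttccttaatcc
The stretch from the closest I-box was identical in RBCS2B and RBCS3B (0 of 30 bases differed) and differed from that of RBCS1A at 4 bases. The 250 bases before the outermost annotated start of RBCS2B (chr5:15382072-15382321, minus strand), shown because this copy had the largest fall, hold 3 I-boxes around 1 G-box:
RBCS2B: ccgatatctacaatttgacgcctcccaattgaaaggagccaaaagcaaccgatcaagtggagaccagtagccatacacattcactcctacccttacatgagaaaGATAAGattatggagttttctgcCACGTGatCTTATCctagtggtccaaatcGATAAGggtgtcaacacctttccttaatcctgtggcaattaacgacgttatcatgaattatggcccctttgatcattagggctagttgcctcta
All sequences are from RefSeq, assembly TAIR10.1. With gene starts as the deposited tables give them, CACGTG was present in the 250 bases before 8 of the 36 members whose span no other locus shares (22.2%) and before 7.61% of 23011 such protein-coding genes. The 8 were RBCS1A, RBCS2B, RBCS3B, RCA, FBA1, CP12-1, GGT1 and GLDP1. GATAAG or its complement was present before 9 of 36 members (25.0%) and 12.8% of these genes. With the RefSeq gene starts, which lie further upstream for several of these genes, the shares were 6 of 38 members (15.8%) against 6.49% of 27443 genes for the G-box, and 6 of 38 (15.8%) against 12.3% for the I-box. At the RefSeq starts the 6 with the G-box were RBCS2B, HCEF1, TKL2, PRK, GGT1 and GLDP1. Only RBCS2B, GGT1 and GLDP1 had it at both sets of starts. RBCS2B was the only RBCS gene with either motif in the window at the RefSeq starts. A match of letters is a description and not a binding site.

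As a check of the labels, the authors' deposited tables list TRIC2 at 17.5 FPKM in wild-type and 0.0690 in dko rosettes (Cuffdiff q = 0.146), and at 17.7 and 0.366 FPKM in seedlings (Cuffdiff q = 0.000768). TRIC1 fell from 34.7 to 10.7 FPKM in rosettes (Cuffdiff q = 0.000899) and from 33.9 to 16.2 FPKM in seedlings (Cuffdiff q = 0.000768), per the authors' deposited tables, so part of its signal remained. The tissues were checked with 13 root marker genes, whose summed level was 1.87 FPKM in wild-type and 1.65 FPKM in dko rosettes, with 8 and 7 of them listed at 0. In seedlings it was 6.82 and 6.70 FPKM, with 1 listed at 0 in each. No root gene was above 1.35 FPKM in rosettes or above 3.23 FPKM in seedlings, so root signal was low in both. How much root the seedling samples held is not known. By Cuffdiff 0 of 1 and 0 of 2 tested root genes passed a q of 0.05, and 0 passed an unadjusted p of 0.05. The summed level of 8 genes of the stomatal lineage was 18.6 and 15.1 FPKM in wild-type and dko rosettes and 50.7 and 48.2 FPKM in seedlings. Of these, 0 of 4 tested genes passed in rosettes (0 at an unadjusted Cuffdiff p under 0.05) and 1 of 8 in seedlings, MYB60, which fell by a log2 ratio of -0.65 (Cuffdiff q = 0.0460). Over all tested loci 16.8% passed in rosettes and 16.5% in seedlings. In seedlings 2 of the 8 stomatal genes were lower and 2 higher at an unadjusted Cuffdiff p under 0.05. Their part in the results was not tested. In such bulk tissue, fewer photosynthetic cells and less RNA per cell cannot be told apart.

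Most Calvin cycle and photorespiration genes were lower in the dko, more of them past the test in seedlings than in rosettes, and none was higher past the test. In rosettes 17 of 38 members fell past a Cuffdiff q of 0.05 and 21 did not pass, and in seedlings 25 fell and 13 did not pass. Over all tested loci, 16.8% passed in rosettes (8.94% lower, 7.81% higher) and 16.5% in seedlings (8.14% lower, 8.40% higher), against 44.7% and 65.8% of the members. Since the members are highly expressed, the same was counted for nuclear loci at a mean of 50 FPKM or more: 16.7% passed in rosettes (10.3% lower, 6.44% higher) and 30.0% in seedlings (20.3% lower, 9.69% higher). At an unadjusted Cuffdiff p under 0.05, 24 members were lower in rosettes and 30 in seedlings, and again 0 were higher. The median log2 ratio of dko over wild type across the 38 members was -0.70 in rosettes and -0.66 in seedlings, while over all tested loci it was 0.01 in both tissues. In rosettes all 38 ratios were below 0, and in seedlings 35. When FPKM was rescaled so that nuclear loci summed to the same total in both groups, every ratio moved up by 0.28 in rosettes and 0.19 in seedlings. The medians were then -0.42 and -0.47, and ratios of 5 members without a call in rosettes turned above 0. The groups also differed in remaining ribosomal RNA. The 18S rRNA locus AT3G41768 is listed in the authors' deposited tables at 1426 FPKM in rosettes of the wild type and 8.41 FPKM in those of the dko (Cuffdiff q = 0.000899), and at 28.1 and 13.8 FPKM in seedlings (Cuffdiff q = 0.000768). With FPKM rescaled to equal sums of nuclear protein-coding loci, which leave ribosomal RNA out, the members' medians were -0.53 and -0.40. The part of ribosomal RNA in the calls was not tested. Summed over the members, the authors' values came to 61.7% of wild type in dko rosettes and 55.1% in dko seedlings. Of the summed FPKM of nuclear protein-coding genes, the members made up 4.27% in wild-type and 2.98% in dko rosettes, and 4.98% and 3.27% in seedlings.

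**Figure D1:**
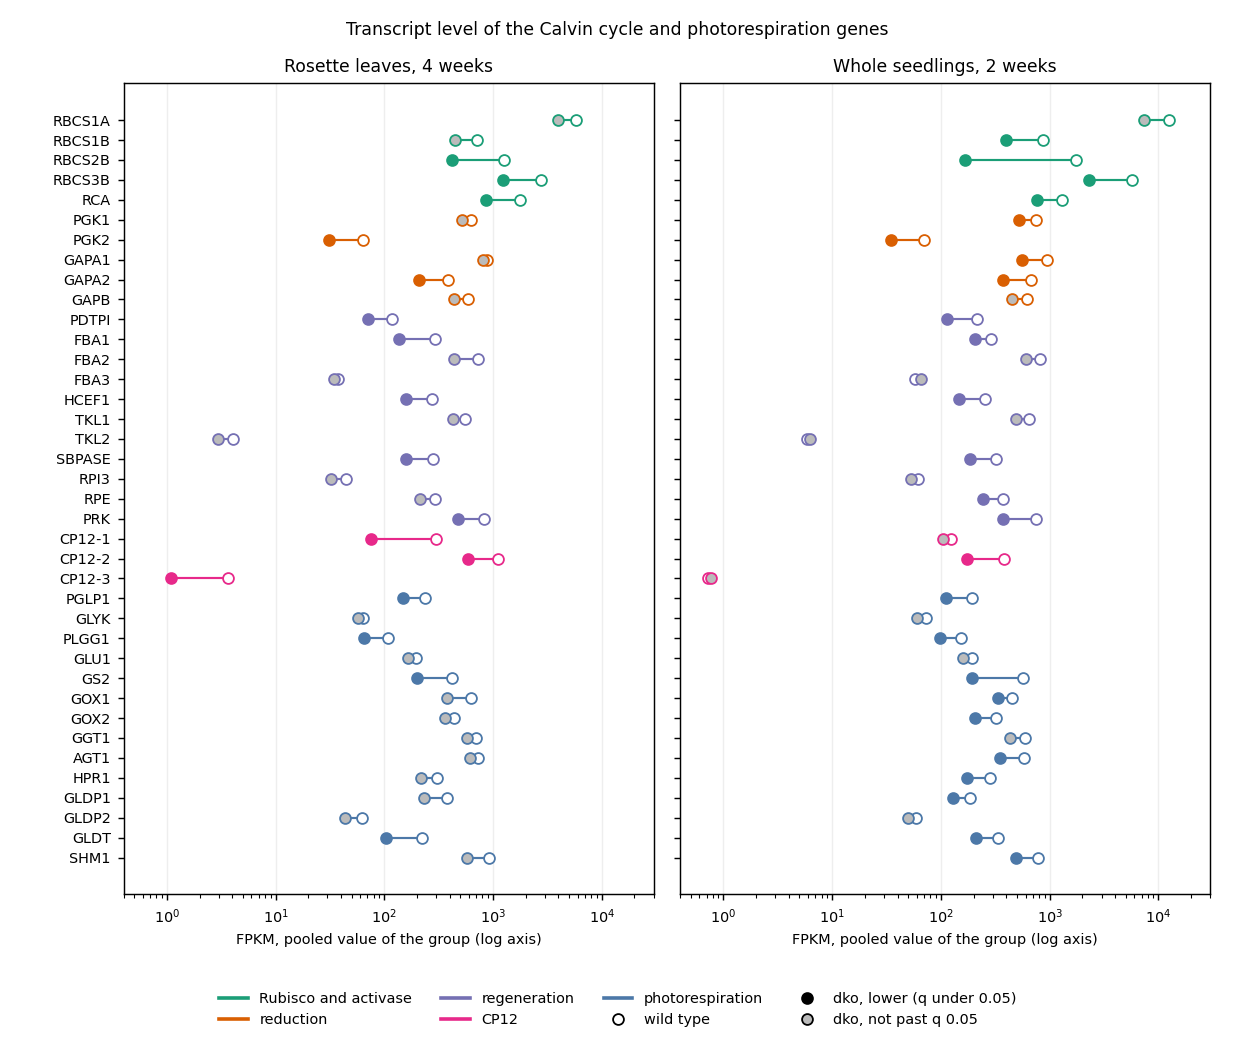
Pooled FPKM (log axis) of each of the 38 genes in wild type (open circle) and dko (filled circle) in rosette leaves and seedlings, coloured by step. Grey filling marks genes that did not pass q 0.05. The filled circles of the 17 genes called in rosettes and the 25 called in seedlings lie to the left of the open ones, and RBCS2B in seedlings has the longest line.

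Among the genes of the small subunit of Rubisco, RBCS2B and RBCS3B fell in both tissues, RBCS1B fell in seedlings and did not pass in rosettes, and RBCS1A passed in neither. Rubisco is built of large subunits encoded in the chloroplast by rbcL, which the authors' deposited tables mark as holding too many fragments and list at 0 in all groups, and of small subunits from the nuclear RBCS genes. RBCS1A (AT1G67090), the most abundant of the 38 in every group, is listed in the authors' deposited tables at 5745 FPKM in wild-type and 3989 in dko rosettes (log2 ratio -0.53, Cuffdiff q = 0.464). For seedlings the authors' deposited tables list it at 12383 and 7448 FPKM (log2 ratio -0.73, Cuffdiff q = 0.231). The dko level stood at 69.4% of the wild-type level in rosettes and at 60.1% in seedlings, neither past the test.

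RBCS2B (AT5G38420) had the largest fall of the 4 in both tissues. In rosettes it went from 1260.1 to 417 FPKM (log2 ratio -1.60, Cuffdiff q = 0.000899) and in seedlings from 1759.9 to 165 FPKM (log2 ratio -3.42, Cuffdiff q = 0.000768), per the authors' deposited tables. These 2 q-values are the smallest the respective tables contain, and other members share them, such as FBA1 in rosettes and PRK in seedlings. RBCS3B (AT5G38410) fell from 2767 to 1239.6 FPKM in rosettes (log2 ratio -1.16, Cuffdiff q = 0.0259) and from 5674 to 2315 FPKM in seedlings (log2 ratio -1.29, Cuffdiff q = 0.00408) in the authors' deposited tables. RBCS1B (AT5G38430) was at 718 and 444 FPKM in rosettes, just outside the threshold (log2 ratio -0.69, Cuffdiff q = 0.0539), and per the authors' deposited tables it fell from 877 to 399 FPKM in seedlings (log2 ratio -1.13, Cuffdiff q = 0.000768).

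The order of the 4 copies by level was the same in both genotypes except at the bottom, where RBCS2B was below RBCS1B in the dko of both tissues. Of the summed RBCS level, RBCS2B made up 12.0% in wild-type and 6.85% in dko rosettes, and 8.50% and 1.60% in seedlings. The share of RBCS1A went from 54.8% to 65.5% and from 59.8% to 72.1%. RBCS1B, RBCS2B and RBCS3B lie in a row on chromosome 5, all on the minus strand, with 2528 bases between RBCS3B and RBCS2B and 2081 between RBCS2B and RBCS1B. Their coding sequences are 94.1% to 97.2% identical. Of the 50-base coding windows, 255 of 497 in RBCS1B, 189 of 497 in RBCS2B and 208 of 512 in RBCS3B occur letter for letter in another copy, against 18 of 494 in RBCS1A. Reads can be shared among these 3 copies, and their assignment by the authors was a step not given in the sources used here. Summed over the 3, the level was 4745 FPKM in wild-type and 2101 FPKM in dko rosettes (44.3% of wild type), and 8311 and 2879 FPKM in seedlings (34.6%). This sum can also depend on the assignment, since FPKM divides by transcript length. The RefSeq transcripts of RBCS1B, RBCS2B and RBCS3B measure 1894, 935 and 1184 bases. That of RBCS1B is longer than its span in the deposited tables (chr5:15384117-15385247), so it is not the length behind the FPKM. The lengths used by the authors were not given in the sources used here. All 4 RBCS genes together stood at 58.1% of the wild-type level in rosettes and at 49.9% in seedlings.

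RCA (AT2G39730), Rubisco activase, frees the active site of Rubisco from inhibitory sugar phosphates. It fell in both tissues, from 1776 to 861 FPKM in rosettes (log2 ratio -1.05, Cuffdiff q = 0.0383) and from 1311 to 759.7 FPKM in seedlings (log2 ratio -0.79, Cuffdiff q = 0.00726) in the authors' deposited tables. RCA lies on chromosome 2 at 16570746 to 16573548 (TAIR10) on the minus strand.

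In the reduction steps, the less abundant member of each gene pair fell in both tissues, and the more abundant member passed the test in seedlings and not in rosettes. Phosphoglycerate kinase and the GAPA/GAPB dehydrogenase turn the first product of Rubisco into triose phosphate. PGK2 (AT1G56190) fell from 63.7 to 31.2 FPKM in rosettes (log2 ratio -1.03, Cuffdiff q = 0.000899) and from 69.3 to 35.0 FPKM in seedlings (log2 ratio -0.99, Cuffdiff q = 0.000768) in the authors' deposited tables. PGK1 (AT3G12780) carried 90.8% of the summed level of the pair in wild-type rosettes. It was at 632 and 518 FPKM there (Cuffdiff q = 0.583) and fell from 754 to 517 FPKM in seedlings (log2 ratio -0.54, Cuffdiff q = 0.0244), per the authors' deposited tables. The ratio of PGK1 in rosettes was -0.29, and the pair as a whole stood at 79.0% of its wild-type level there and at 67.1% in seedlings.

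The 2 genes of the A subunit of the dehydrogenase showed the same arrangement. GAPA2 (AT1G12900) fell from 388 to 207 FPKM in rosettes (log2 ratio -0.91, Cuffdiff q = 0.00818) and from 667 to 369 FPKM in seedlings (log2 ratio -0.85, Cuffdiff q = 0.000768) in the authors' deposited tables. GAPA1 (AT3G26650) was at 888 and 800.5 FPKM in rosettes (log2 ratio -0.15, Cuffdiff q = 0.811), and fell in seedlings from 937 to 561 FPKM (log2 ratio -0.74, Cuffdiff q = 0.000768), per the authors' deposited tables. GAPB (AT1G42970), the subunit that gives the enzyme its own redox regulation, passed in neither tissue. It was at 583 and 434 FPKM in rosettes (Cuffdiff q = 0.343) and 616 and 454 FPKM in seedlings (Cuffdiff q = 0.0722) in the authors' deposited tables. No 50-base coding window is shared within the PGK pair or within the GAPA pair. Of the 5 reduction genes, 2 (40.0%) fell in rosettes and 4 (80.0%) in seedlings, beside 8.94% and 8.14% of all tested loci.

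The regeneration phase rebuilds ribulose-1,5-bisphosphate, and its irreversible steps fell in both tissues while several reversible ones did not pass. PRK (AT1G32060), phosphoribulokinase, makes the acceptor of CO2. It fell from 821 to 477 FPKM in rosettes (log2 ratio -0.78, Cuffdiff q = 0.0479) and from 755 to 371 FPKM in seedlings (log2 ratio -1.03, Cuffdiff q = 0.000768) in the authors' deposited tables. SBPASE (AT3G55800) is the sedoheptulose bisphosphatase known for its control over the flux of the cycle. Its level fell from 281 to 157 FPKM in rosettes (log2 ratio -0.84, Cuffdiff q = 0.0125) and from 318 to 187 FPKM in seedlings (log2 ratio -0.77, Cuffdiff q = 0.000768), per the authors' deposited tables. HCEF1 (AT3G54050), the chloroplast fructose bisphosphatase, fell from 277 to 157 FPKM in rosettes (log2 ratio -0.82, Cuffdiff q = 0.0135) and from 254 to 145 FPKM in seedlings (log2 ratio -0.81, Cuffdiff q = 0.000768) in the authors' deposited tables. These 3 enzymes are targets of thioredoxin, and each stood between 49.1% and 58.7% of wild type in both tissues. The locus of HCEF1 shares its span in the tables with AT3G54060. Whether strand was used in counting was not given in the sources used here, and reads of that neighbour may be included.

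The triose phosphate isomerase gene PDTPI (AT2G21170) and the aldolase gene FBA1 (AT2G21330) also fell in both tissues. PDTPI went from 117 to 70.3 FPKM in rosettes (log2 ratio -0.73, Cuffdiff q = 0.0132) and from 214 to 114 FPKM in seedlings (log2 ratio -0.91, Cuffdiff q = 0.000768) in the authors' deposited tables. FBA1 went from 295 to 137 FPKM in rosettes (log2 ratio -1.11, Cuffdiff q = 0.000899) and from 289.96 to 207 FPKM in seedlings (log2 ratio -0.49, Cuffdiff q = 0.00847), per the authors' deposited tables. FBA2 (AT4G38970) is the more abundant aldolase gene and was just outside the threshold in rosettes. It was at 728 and 435 FPKM (log2 ratio -0.74, Cuffdiff q = 0.0567), and at 808 and 608 FPKM in seedlings (log2 ratio -0.41, Cuffdiff q = 0.105) in the authors' deposited tables. FBA3 (AT2G01140), the least abundant aldolase of the 3, was at 37.5 and 34.8 FPKM in rosettes (Cuffdiff q = 0.805) and 57.4 and 65.0 FPKM in seedlings (Cuffdiff q = 0.397), per the authors' deposited tables.

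RPE (AT5G61410), ribulose-phosphate epimerase, fell past the test in seedlings, from 369.9 to 245 FPKM (log2 ratio -0.59, Cuffdiff q = 0.000768), and was at 294 and 212 FPKM in rosettes (log2 ratio -0.47, Cuffdiff q = 0.206) in the authors' deposited tables. Transketolase moves carbon pairs between sugar phosphates in both the Calvin cycle and the pentose phosphate pathway, and neither of its genes passed. TKL1 (AT3G60750) was at 553 and 425 FPKM in rosettes (Cuffdiff q = 0.489) and 652 and 486 FPKM in seedlings (Cuffdiff q = 0.141), per the authors' deposited tables. Its minor copy TKL2 (AT2G45290) was at 4.09 and 2.95 FPKM in rosettes (Cuffdiff q = 0.218) and 5.81 and 6.27 FPKM in seedlings (Cuffdiff q = 0.716), per the authors' deposited tables. RPI3 (AT3G04790), the ribose-5-phosphate isomerase of the chloroplast, was at 44.8 and 32.5 FPKM in rosettes (Cuffdiff q = 0.114) and 61.4 and 53.3 FPKM in seedlings (Cuffdiff q = 0.305) in the authors' deposited tables, where its span is shared with AT3G04800. Of the 11 regeneration genes, 5 (45.5%) fell in rosettes and 6 (54.5%) in seedlings, beside 8.94% and 8.14% of all tested loci.

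The 3 CP12 genes fell together in rosettes, whereas in seedlings 1 of them did. Over all tested loci 8.94% fell in rosettes and 8.14% in seedlings. CP12 is a small protein that ties phosphoribulokinase and the GAPA/GAPB dehydrogenase into an inactive complex in the dark. CP12-1 (AT2G47400) fell in rosettes from 297 to 75.8 FPKM, per the authors' deposited tables (log2 ratio -1.97, Cuffdiff q = 0.000899), the largest fall among the 38 in that tissue. In seedlings it was at 123 and 104 FPKM, per the authors' deposited tables (log2 ratio -0.25, Cuffdiff q = 0.209). CP12-2 (AT3G62410) was the most abundant of the 3 and fell in both tissues, from 1119 to 583 FPKM in rosettes (log2 ratio -0.94, Cuffdiff q = 0.00551) and from 377 to 175 FPKM in seedlings (log2 ratio -1.11, Cuffdiff q = 0.000768), per the authors' deposited tables. CP12-3 (AT1G76560) was below 1 FPKM in seedlings, at 0.728 and 0.762 FPKM (Cuffdiff q = 0.975). It fell in rosettes from 3.65 to 1.09 FPKM (log2 ratio -1.74, Cuffdiff q = 0.0117) in the authors' deposited tables. Wild-type levels of all 3 genes were higher in the rosette table than in the seedling table, which were scaled separately. CP12-1 and CP12-2 are 68.4% identical in coding sequence and share no 50-base window.

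In the chloroplast part of photorespiration, the phosphatase that opens the pathway, a transporter of the envelope and the enzyme that recaptures ammonia fell in both tissues, while glycerate kinase and glutamate synthase did not pass. GS2 (AT5G35630) is the chloroplast glutamine synthetase that fixes the ammonia released in mitochondria. Its level fell from 416 to 199 FPKM in rosettes (log2 ratio -1.06, Cuffdiff q = 0.00231) and from 566 to 194 FPKM in seedlings (log2 ratio -1.54, Cuffdiff q = 0.000768) in the authors' deposited tables. Its dko level was 48.0% of the wild-type level in rosettes and 34.3% in seedlings, and in seedlings only RBCS2B fell further among the 38. GLU1 (AT5G04140) is the ferredoxin-dependent glutamate synthase that works with GS2. It was at 194 and 165 FPKM in rosettes (log2 ratio -0.23, Cuffdiff q = 0.685) and 193 and 158 FPKM in seedlings (log2 ratio -0.29, Cuffdiff q = 0.317), per the authors' deposited tables.

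PGLP1 (AT5G36700), the phosphatase acting on 2-phosphoglycolate, fell from 239 to 148 FPKM in rosettes (log2 ratio -0.69, Cuffdiff q = 0.0388) and from 192 to 111 FPKM in seedlings (log2 ratio -0.79, Cuffdiff q = 0.000768) in the authors' deposited tables. Another locus, AT5G36790, has an identical coding sequence. It is listed at 0.717 and 0.490 FPKM in rosettes and 0.653 and 0.427 FPKM in seedlings in the authors' deposited tables, under 1 FPKM throughout. Reads of the identical coding sequence cannot be told apart. The sum of the pair, which can also vary with their split where transcript lengths differ, was 62.1% of wild type in dko rosettes and 57.7% in dko seedlings. PLGG1 (AT1G32080) exchanges glycolate and glycerate across the chloroplast envelope. Its level fell from 108 to 65.8 FPKM in rosettes (log2 ratio -0.72, Cuffdiff q = 0.0167) and from 154 to 97.7 FPKM in seedlings (log2 ratio -0.65, Cuffdiff q = 0.000768), per the authors' deposited tables. PLGG1 and PRK lie 2702 bases apart on chromosome 1, and loci between them were not looked for. GLYK (AT1G80380), glycerate kinase, returns the recovered carbon to the Calvin cycle. It was at 63.2 and 57.5 FPKM in rosettes (Cuffdiff q = 0.751) and 72.2 and 59.8 FPKM in seedlings (Cuffdiff q = 0.143) in the authors' deposited tables.

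None of the 5 peroxisomal genes passed Cuffdiff's q of 0.05 in rosettes, where 1 was lower at an unadjusted p under 0.05. Over all tested loci 8.94% were lower past that q in rosettes, so 0 of 5 does not set this compartment apart. In seedlings 4 of 5 fell, beside 8.14% over all tested loci, and all 5 were lower at that unadjusted p. GOX1 (AT3G14420) and GOX2 (AT3G14415), glycolate oxidases that produce glyoxylate and hydrogen peroxide, are neighbours on chromosome 3 with 516 bases between them. Their coding sequences are 92.4% identical, and 1.80% of their 50-base windows are shared. GOX1 was at 628 and 378 FPKM in rosettes, just outside the threshold (log2 ratio -0.73, Cuffdiff q = 0.0553), and fell from 450.3 to 333 FPKM in seedlings, just inside it (log2 ratio -0.43, Cuffdiff q = 0.0424), per the authors' deposited tables. GOX2 was at 438 and 359 FPKM in rosettes (log2 ratio -0.29, Cuffdiff q = 0.553) and fell from 318 to 207 FPKM in seedlings (log2 ratio -0.62, Cuffdiff q = 0.000768) in the authors' deposited tables. Their sum stood at 69.1% of the wild-type level in rosettes and at 70.4% in seedlings.

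Glyoxylate is converted to glycine by the aminotransferases GGT1 (AT1G23310) and AGT1 (AT2G13360), the latter drawing its amino group from serine. AGT1 fell in seedlings from 581 to 350.05 FPKM (log2 ratio -0.73, Cuffdiff q = 0.000768) and was at 727 and 615 FPKM in rosettes (log2 ratio -0.24, Cuffdiff q = 0.665), per the authors' deposited tables. GGT1 was the member closest to the threshold from outside in seedlings. There it was at 598 and 428 FPKM (log2 ratio -0.48, Cuffdiff q = 0.0506), and was at 698 and 572 FPKM in rosettes (log2 ratio -0.29, Cuffdiff q = 0.608) in the authors' deposited tables. HPR1 (AT1G68010), hydroxypyruvate reductase, is the last peroxisomal step. It fell in seedlings from 279.97 to 175 FPKM (log2 ratio -0.68, Cuffdiff q = 0.000768) and was at 307 and 219 FPKM in rosettes (log2 ratio -0.49, Cuffdiff q = 0.180), per the authors' deposited tables. The median log2 ratio of the 5 was -0.29 in rosettes and -0.62 in seedlings.

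In mitochondria, glycine decarboxylase and serine hydroxymethyltransferase turn glycine into serine. Of the genes described here, 1 of the 4 genes listed for this step fell in rosettes and 3 in seedlings. These are 25.0% and 75.0%, beside 8.94% and 8.14% lower over all tested loci. With so few genes, 1 of 4 does not set this step apart in rosettes. GLDT (AT1G11860), the T protein of glycine decarboxylase, fell from 223 to 104 FPKM in rosettes (log2 ratio -1.10, Cuffdiff q = 0.000899) and from 333 to 209 FPKM in seedlings (log2 ratio -0.67, Cuffdiff q = 0.00141) in the authors' deposited tables. GLDP1 (AT4G33010), the main gene of the decarboxylating P protein, fell in seedlings from 184 to 130.1 FPKM (log2 ratio -0.50, Cuffdiff q = 0.0173) and was at 381 and 233 FPKM in rosettes (log2 ratio -0.71, Cuffdiff q = 0.101), per the authors' deposited tables. SHM1 (AT4G37930), serine hydroxymethyltransferase, fell in seedlings from 787 to 489.7 FPKM (log2 ratio -0.68, Cuffdiff q = 0.00457) and was at 917 and 578 FPKM in rosettes (log2 ratio -0.66, Cuffdiff q = 0.158) in the authors' deposited tables. The ratios of SHM1 lay close together in both tissues, although the test was passed in seedlings and not in rosettes.

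GLDP2 (AT2G26080), the minor P protein gene, passed in neither tissue, with 61.9 and 43.2 FPKM in rosettes (Cuffdiff q = 0.108) and 59.5 and 50.3 FPKM in seedlings (Cuffdiff q = 0.235) in the authors' deposited tables. At an unadjusted p under 0.05 all 4 mitochondrial genes were lower in rosettes and 3 in seedlings. Their median log2 ratio was -0.69 in rosettes and -0.58 in seedlings.

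Side by side, 15 of the 38 genes fell in both tissues. Of the genes that fell in rosettes, 88.2% also fell in seedlings, beside 65.8% of all 38. Of those that fell in seedlings, 60.0% also fell in rosettes, beside 44.7% of all 38. The overlap over all tested loci was not counted. The 15 genes are RBCS2B, RBCS3B, RCA, PGK2, GAPA2, PDTPI, FBA1, HCEF1, SBPASE, PRK, CP12-2, PGLP1, PLGG1, GS2 and GLDT. None of the 5 peroxisomal genes is among them, as none passed in rosettes. CP12-1 and CP12-3 passed in rosettes and not in seedlings, 10 genes passed in seedlings and not in rosettes, and 11 passed in neither. Falls of at least 2-fold were reached by 9 genes in rosettes and 6 in seedlings, and by 3 in both: RBCS2B, RBCS3B and GS2. The ratio was lower in seedlings for 21 genes and lower in rosettes for 17. The widest gaps between tissues were those of RBCS2B, whose log2 ratio was lower by 1.82 in seedlings, and of CP12-3 and CP12-1, whose ratios were higher there by 1.80 and 1.72. The difference between tissues was not tested, since the tables hold no replicate values and were scaled separately. Across the 38 genes, the ratios in the 2 tissues had a Spearman rho of 0.43, given as a description over genes measured in the same libraries.

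**Figure D2:**
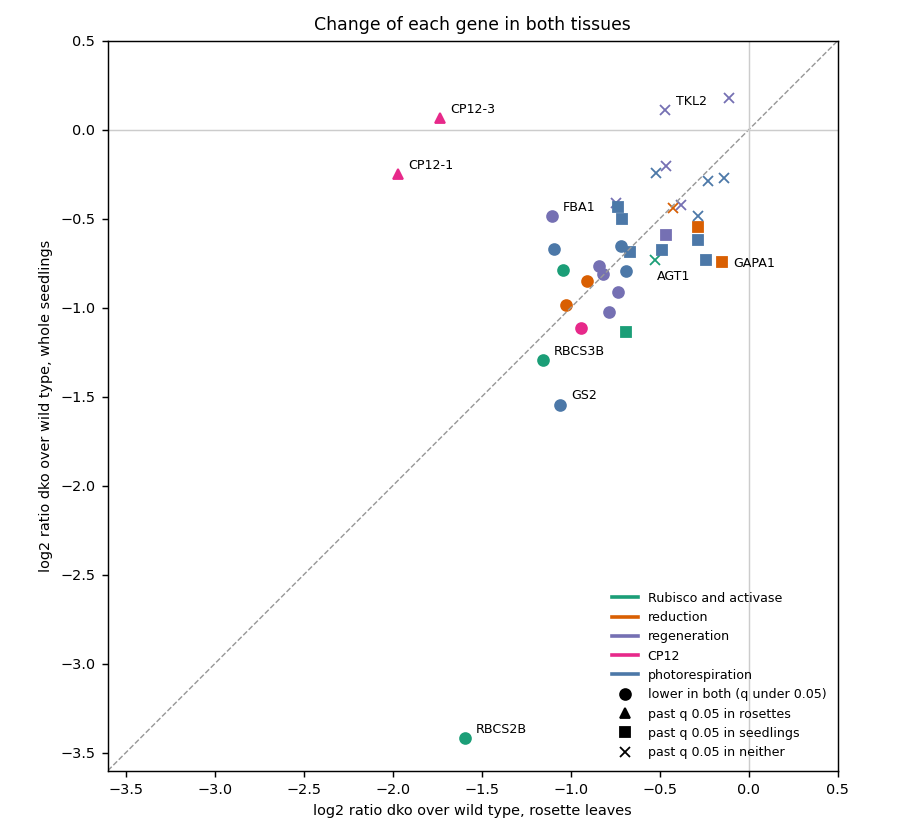
Log2 ratio of dko over wild type in rosette leaves (horizontal) against seedlings (vertical) for the 38 genes, coloured by step. The symbol gives where q was under 0.05, and the dashed line marks equal ratios. Most genes lie below 0 on both axes, RBCS2B lies at -1.60 and -3.42, and CP12-1 and CP12-3 lie far to the left with seedling ratios of -0.25 and 0.07.

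Among 22 further genes of photorespiration, 7 fell and none rose in rosettes, where 9 were lower and 0 higher at an unadjusted Cuffdiff p under 0.05, and of 21 tested in seedlings 6 fell and 1 rose. The shares lower were 31.8% in rosettes and 28.6% in seedlings, beside 8.94% and 8.14% over all tested loci. The median log2 ratio of these further genes was -0.43 in rosettes and -0.09 in seedlings. The latter was above 0 once FPKM was rescaled to equal nuclear sums. GLDH3, a gene of the H protein that carries the glycine-derived group between the other subunits of glycine decarboxylase, fell in both tissues. Its level went from 283 to 164 FPKM in rosettes (Cuffdiff q = 0.0458) and from 444 to 281 FPKM in seedlings (Cuffdiff q = 0.000768), per the authors' deposited tables. GLDH2, another H protein gene, was at 5.14 and 2.96 FPKM in rosettes (Cuffdiff q = 0.0921) and rose in seedlings from 17.2 to 23.7 FPKM (Cuffdiff q = 0.0195), per the authors' deposited tables. The H protein gene GLDH1, named after its values were seen, fell in both tissues. It went from 398 to 251 FPKM in rosettes (Cuffdiff q = 0.0375) and from 424 to 310 FPKM in seedlings (Cuffdiff q = 0.00635), per the authors' deposited tables.

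DIT1, the envelope carrier that brings 2-oxoglutarate into the chloroplast for ammonia capture, fell from 30.0 to 16.7 FPKM in rosettes (Cuffdiff q = 0.00291) and from 48.7 to 23.3 FPKM in seedlings (Cuffdiff q = 0.000768) in the authors' deposited tables. PMDH2, peroxisomal malate dehydrogenase, fell in seedlings from 435 to 264 FPKM (Cuffdiff q = 0.000768) and was at 609.5 and 428 FPKM in rosettes (Cuffdiff q = 0.221), per the authors' deposited tables. In rosettes MTLPD1, the L protein of glycine decarboxylase and of other mitochondrial complexes, fell from 42.9 to 24.4 FPKM (Cuffdiff q = 0.00348) in the authors' deposited tables. GOX3, a minor relative of the glycolate oxidases, fell there from 1.77 to 0.216 FPKM (Cuffdiff q = 0.00403), per the authors' deposited tables.

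The thioredoxin system switches Calvin cycle enzymes on in the light, and a list of 11 genes held its parts and the target enzyme NADP-MDH. Of the 11 genes, 1 was lower in rosettes and 8 in seedlings, with none higher, and NADP-MDH passed in neither. At an unadjusted Cuffdiff p under 0.05 the counts were 6 and 8, and 0 higher. The share of 9.09% lower in rosettes is near the 8.94% over all tested loci, while in seedlings 72.7% were lower beside 8.14%. TRXF1, the f-type thioredoxin, fell from 235 to 137 FPKM in rosettes (Cuffdiff q = 0.0114) and from 237 to 139.8 FPKM in seedlings (Cuffdiff q = 0.000768) in the authors' deposited tables. TRXF2, its close relative, fell in seedlings from 75.5 to 40.5 FPKM (Cuffdiff q = 0.000768) in the authors' deposited tables. FTRB and FTRA2, the catalytic and the variable subunit of ferredoxin-thioredoxin reductase, fell in seedlings from 209.9 to 127 FPKM and from 172 to 107 FPKM (each Cuffdiff q = 0.000768), per the authors' deposited tables. The list median was -0.45 in rosettes and -0.55 in seedlings.

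Among genes that fold and assemble Rubisco, the chaperonins rose. Of 9 such genes, 2 rose and none fell in rosettes (0 lower at an unadjusted Cuffdiff p under 0.05). In seedlings 3 rose and 2 fell. The shares called were 22.2% in rosettes and 55.6% in seedlings, beside 16.8% and 16.5% over all tested loci. The chaperonin gene CPN60A rose from 57.4 to 109 FPKM in rosettes (Cuffdiff q = 0.000899) and from 241 to 439 FPKM in seedlings (Cuffdiff q = 0.000768), per the authors' deposited tables. CPN60B, its partner subunit, rose from 54.1 to 116 FPKM in rosettes (Cuffdiff q = 0.000899) and from 219 to 336 FPKM in seedlings (Cuffdiff q = 0.000768) in the authors' deposited tables. These chaperonins are known to fold many chloroplast proteins besides the large subunit of Rubisco. Their co-chaperonin CPN20 rose in seedlings from 371 to 585 FPKM (Cuffdiff q = 0.00141) and was at 98.1 and 147 FPKM in rosettes (Cuffdiff q = 0.180) in the authors' deposited tables. RBCX1, an assembly chaperone of the large subunit, fell in seedlings from 184 to 105 FPKM (Cuffdiff q = 0.000768) and was at 147 and 141 FPKM in rosettes (Cuffdiff q = 0.914), per the authors' deposited tables. RBCX2, named after its values were seen, fell in seedlings from 45.5 to 30.4 FPKM (Cuffdiff q = 0.00141), per the authors' deposited tables. The median of the list was 0.30 in rosettes and -0.09 in seedlings, the latter above 0 under the same rescaling.

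In a list of 9 genes of starch and sucrose synthesis, triose phosphate export and carbonic anhydrase, 3 fell in rosettes and 5 in seedlings. None rose (0 higher at an unadjusted Cuffdiff p under 0.05). The shares lower were 33.3% and 55.6%, beside 8.94% and 8.14% over all tested loci. BCA1, carbonic anhydrase of the chloroplast, fell from 397 to 110.3 FPKM in rosettes (Cuffdiff q = 0.000899) and from 874 to 269.7 FPKM in seedlings (Cuffdiff q = 0.000768) in the authors' deposited tables. BCA2 was at 307 and 311 FPKM in rosettes (Cuffdiff q = 0.979), and fell from 538 to 240.3 FPKM in seedlings (Cuffdiff q = 0.000768), per the authors' deposited tables. APL1 and ADG1 encode subunits of ADP-glucose pyrophosphorylase, which feeds starch synthesis. APL1 fell from 67.5 to 36.9 FPKM in rosettes (Cuffdiff q = 0.000899) and from 119 to 78.6 FPKM in seedlings (Cuffdiff q = 0.00141), per the authors' deposited tables. ADG1 fell in seedlings from 149 to 82.8 FPKM (Cuffdiff q = 0.000768) and was at 99.0 and 67.7 FPKM in rosettes (Cuffdiff q = 0.0744) in the authors' deposited tables. TPT, the triose phosphate translocator, fell in seedlings from 689.6 to 416 FPKM (Cuffdiff q = 0.000768), per the authors' deposited tables. SPS1F, a sucrose phosphate synthase, fell in rosettes from 76.1 to 46.6 FPKM (Cuffdiff q = 0.0250), per the authors' deposited tables. In seedlings SPS1F was at 46.2 and 46.4 FPKM (Cuffdiff q = 0.984), per the same tables.

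**Figure D3:**
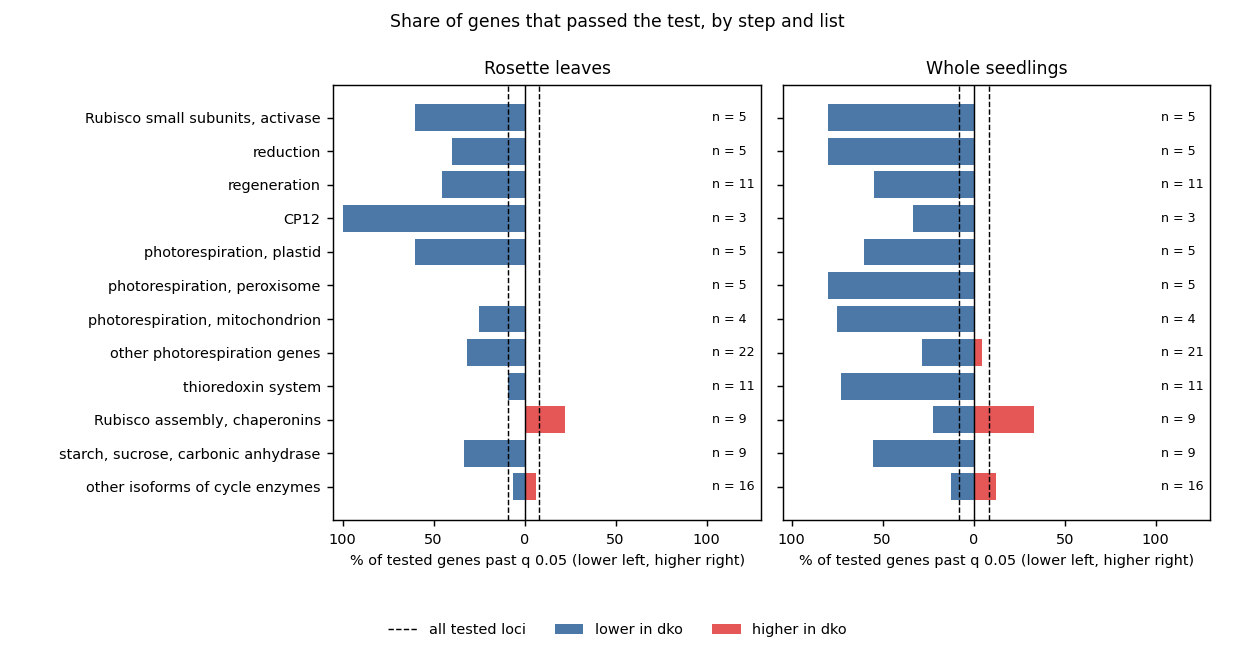
Share of tested genes past q 0.05 in each step and list, lower in dko to the left and higher to the right, with n the number tested; dashed lines give the share over all tested loci (8.94% lower and 7.81% higher in rosettes, 8.14% and 8.40% in seedlings). The Calvin cycle and photorespiration steps extend to the left except for the peroxisomal genes in rosettes, and the list with the chaperonins extends to the right in rosettes and to both sides in seedlings, where 22.2% were lower.

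Isoforms of the same enzymes that serve other pathways or other compartments were compared as a list of 16 genes. In rosettes 1 rose and 1 fell (12.5% called), and in seedlings 2 rose and 2 fell (25.0% called). Over all tested loci 16.8% and 16.5% were called, so the share in rosettes was below that over all loci. The median log2 ratio of the 16 isoforms was -0.09 in rosettes (above 0 under that rescaling) and 0.13 in seedlings. Among the members it was -0.42 and -0.74 for the reduction genes and -0.73 and -0.49 for the regeneration genes. Over all 38 members it was -0.70 and -0.66. The isoforms had lower levels, with a wild-type median of 36.7 FPKM in rosettes and 60.0 in seedlings, against 385 and 351 for the 38 members. GAPC1, the cytosolic counterpart of the GAPA/GAPB enzyme in glycolysis, rose from 130.1 to 209 FPKM in rosettes (Cuffdiff q = 0.0322) and from 365 to 497 FPKM in seedlings (Cuffdiff q = 0.0314) in the authors' deposited tables. PGK3, the cytosolic phosphoglycerate kinase, rose in seedlings from 110.2 to 152 FPKM (Cuffdiff q = 0.00504) and was at 67.9 and 78.7 FPKM in rosettes (Cuffdiff q = 0.589), per the authors' deposited tables. The isoforms that fell were FBP, the cytosolic fructose-1,6-bisphosphatase of sucrose synthesis, and the aldolase gene FBA5. FBP went from 153 to 92.4 FPKM in rosettes (Cuffdiff q = 0.0125) and from 123 to 71.7 FPKM in seedlings (Cuffdiff q = 0.000768), per the authors' deposited tables. FBA5 fell from 453 to 214 FPKM in seedlings (Cuffdiff q = 0.000768) and was at 483 and 309 FPKM in rosettes (Cuffdiff q = 0.0875) in the authors' deposited tables. The difference between the 2 lists was not tested.

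**Figure D4:**
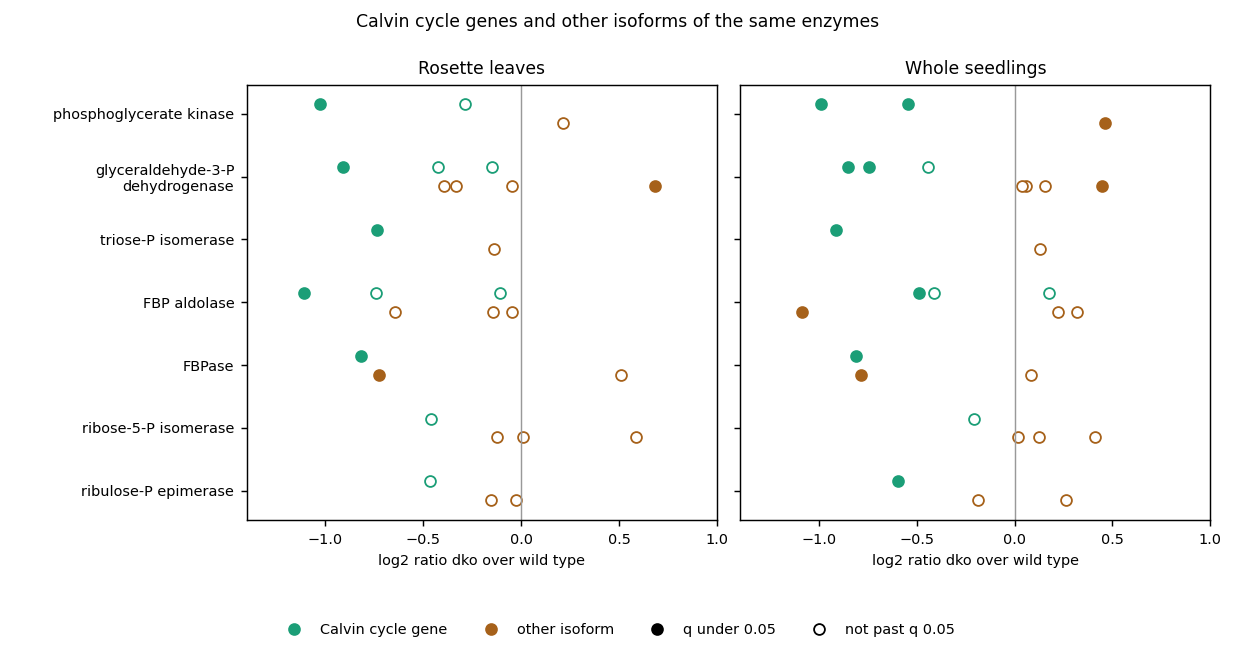
Log2 ratio of dko over wild type for Calvin cycle genes (green) and other isoforms of the same enzyme (brown) in rosette leaves and seedlings. Filled points passed q 0.05. The Calvin cycle points lie left of 0 except FBA3 in seedlings at 0.18. The isoforms scatter around 0, with GAPC1 at 0.68 and 0.45, FBP at -0.72 and -0.78, and FBA5 at -0.64 and -1.09.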

How the data were processed

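Strand-specific libraries of total RNA without ribosomal RNA were sequenced, per the labels' protocols. Per the submitters' processing notes the tools were TopHat2, Bowtie2, Cuffdiff and Cufflinks, all listed as version 2.2.0, and the build was TAIR10. Scaling, strand use in counting and treatment of reads matching several loci were details not given in the sources used here. High and low light are mentioned in the design text of the series, whereas the labels of all 4 samples give the same light condition. FPKM was deposited by the authors as 1 pooled value per locus and group, so tests per replicate could not be made and p-values measure only the spread between samples that may be technical. The log2 ratio of dko over wild type was deposited by the authors. Each p-value and q-value was deposited by the authors from Cuffdiff. Adjusting that p anew by Benjamini-Hochberg over 18338 and 19747 tested loci gave values that differed from that q by at most 5.24e-07. The test score deposited by the authors was not used. Calls are q under 0.05.

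The members and the 8 lists (90 entries) were chosen with earlier results of these data known. The text names all members and, for each list and tissue, up to 4 called genes with the largest absolute log2 ratio. Symbols are common names checked against RefSeq. Sequences and coding identities (global alignment, Biopython 1.88) come from RefSeq TAIR10.1; starts of the tables count from 0, and after adding 1, 8302 of 27983 nuclear starts equalled those of RefSeq, against 134 without. The motif window, 250 bases, was also set at RefSeq starts, after seeing the data. The adjustment and motif search were tested on simulated data. Alternatives were other q thresholds, a 2-fold minimum, level minimums, other sets of loci for q, other scalings, pseudocounts and summed copies.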

Additional observations from a re-analysis of the deposited data

Results flagged for a closer look

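Of the 38 genes, 3 had log2 ratios of opposite sign in the 2 tissues in the authors' deposited tables, which is what marked them. CP12-3 was at -1.74 in rosettes, past the threshold, and at 0.07 in seedlings, where its level was under 1 FPKM in both groups. TKL2 was at -0.47 in rosettes and 0.11 in seedlings, and FBA3 at -0.11 and 0.18, and these 4 values did not pass the threshold. The difference between tissues was not tested.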

How the results depend on the processing

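No paired analysis was possible because the tables hold 1 pooled value per group; for the same reason no replicate could be left out. The count of 17 members lower in rosettes became 8 at a q threshold of 0.01 and 9 with a minimum of 2-fold, and ranged from 14 to 20 under the other alternatives. The count of 25 in seedlings became 6 with a minimum of 2-fold and ranged from 19 to 27 under the others. These counts rest on the authors' p-values, so the ranges do not cover rescaling, recentring or pseudocounts. With FPKM rescaled so that nuclear loci sum to the same total in both groups, the members' median log2 ratio moved from -0.70 to -0.42 in rosettes and from -0.66 to -0.47 in seedlings. With nuclear protein-coding loci rescaled in this way, an alternative added after seeing the data, it was -0.53 and -0.40. The 2 rescalings shift every ratio by 0.28 and 0.17 in rosettes and by 0.19 and 0.26 in seedlings, by construction, and no called member changed sign under them. Ratios of members without a call changed sign for 5 and 3 genes in rosettes and for 0 and 3 in seedlings. Recentring on the median of tested loci and pseudocounts of 1 or 0.1 changed no sign. Precision is limited by the pooled values and the unknown depth.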
